A study of Mus musculus with 12 samples.

Results

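USF2 peaks were examined at 10 genes that encode sensors of the cell's energy state, 6 sirtuins (Sirt1, Sirt2, Sirt3, Sirt5, Sirt6 and Sirt7) and 4 genes of the AMP-activated protein kinase, AMPK (Prkaa1, Prkaa2, Prkab1 and its upstream kinase gene Stk11). They were taken from 21883 protein-coding genes by name. A peak was assigned to a gene when its summit lay within 1000 bp of either end of the annotated gene (a gene-end peak) or inside the gene. The genes were chosen by name with the fold, q-value and presence of their peaks in these same lists known, so their calls are a description and were not tested. Chromatin immunoprecipitation with sequencing (ChIP-seq), which recovers DNA bound by a protein with an antibody, was done for USF2 in wild-type mouse embryonic fibroblasts (MEFs) in normal culture and after glucose starvation. Each condition had 2 libraries, and each of the 4 libraries has its own peak list. How long the cells were starved is not given in the sources used here, nor whether the 2 libraries of a condition came from separate cultures. A peak list holds no expression values, so the identity of the fibroblasts could not be checked against marker genes.

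Sirtuins are enzymes that remove acetyl and related acyl groups from proteins and consume NAD in doing so, which ties their activity to metabolism. AMPK is a kinase of a catalytic alpha, a scaffolding beta and a nucleotide-binding gamma subunit. It is activated when AMP rises against ATP and when the kinase encoded by Stk11 (LKB1) phosphorylates its alpha subunit, and glucose starvation is a common way to activate it. USF2 is a basic helix-loop-helix leucine zipper transcription factor whose preferred DNA site is the E-box CACGTG.

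Of the 10 genes, 1 had a gene-end peak in any list. It was Sirt1, the nuclear deacetylase of histones and of transcription factors, with a peak in normal 1, starved 1 and starved 2 and none in normal 2. In each of these 3 lists it was 1 of 10 genes (10%), where 2.55% of all protein-coding genes had a gene-end peak in normal 1, 2.02% in starved 1 and 2.3% in starved 2. Normal 2 called 0 of the 10, against 2.68% of all genes. No gene of the 10 was called in both normal lists (2.19% of all genes) or in all 4 lists (1.13%). In at least 1 list 4.05% of all genes had a gene-end peak. Counting peaks inside genes as well, 2 of the 10 genes had a peak in at least 1 list (10.5% of all genes), the second being Sirt6. Sirt2, Sirt3, Sirt5, Sirt7, Prkaa1, Prkaa2, Prkab1 and Stk11 had no call in any list.

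Sirt1 lies on chromosome 10 (63319005 to 63339035 in GRCm38, minus strand), and its 1 start in the RefSeq promoter table is the higher of these coordinates. The promoter is shown because the peaks of all 3 lists have their summits inside it, and because it was the only one among the 10 genes to hold a CACGTG. The sequence is that of RefSeq (GRCm38.p6), chr10:63338986-63339285 on the minus strand, from 250 bases before the start to 50 after it, 5′ to 3′, with CACGTG in capitals.
Sirt1: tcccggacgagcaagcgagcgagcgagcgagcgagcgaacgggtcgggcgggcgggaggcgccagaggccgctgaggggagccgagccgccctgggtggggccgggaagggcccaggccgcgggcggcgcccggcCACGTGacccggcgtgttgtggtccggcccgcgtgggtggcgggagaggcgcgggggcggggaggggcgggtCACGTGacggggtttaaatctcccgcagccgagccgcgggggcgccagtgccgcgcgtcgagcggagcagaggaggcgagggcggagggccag
The first CACGTG covers the bases 115 to 110 before the start, and the second those 43 to 38 before it. The second is preceded by GT and followed by AC, which makes a longer palindrome of 10 bases. Of 32817 RefSeq promoter windows of this length (300 bases), 7.15% held at least 1 CACGTG, 0.594% held 2 or more and 0.326% held the palindrome of 10 bases. These motifs equal their own reverse complement, so a search of 1 strand covers both. All 10 genes had at least 1 such window (12 in total), and 9 of the 10 had no CACGTG in theirs. A match is a description of the letters and no evidence of a bound site.

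In normal 1 the Sirt1 peak was weak for its list. It was 152 bp wide (63339012 to 63339163), which is both the narrowest and the median width of that list. The authors' fold enrichment is a ratio of reads at the summit to the local background, with 1 added to each. The peak had a fold of 5.29 and a −log10 q of 3.05. It ranked 942 of 1645 peaks by fold, below the list's median of 5.46, and 379 of 456 gene-end peaks. The summit fell on the annotated start base itself (0 bp).

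In both starved lists the Sirt1 peak was among the strongest. Starved 1 gave a fold enrichment of 14.4 and a −log10 q of 23.0, at rank 25 of 825 by fold and 24 of 366 gene-end peaks (63338836 to 63339421). Starved 2 gave 15.9 and 26.1, at rank 10 of 1178 and 10 of 416 gene-end peaks (63338853 to 63339453). The median fold of these lists was 5.54 and 5.30. The peaks were 586 and 601 bp wide, where the medians of their lists were 328 and 309 bp, and 41 and 44 peaks of the respective list were at least as wide. The starved summits lay 84 and 106 bp upstream of the start, 22 bp from each other. They were 28.5 and 6.5 bp from the centre of the first CACGTG and 43.5 and 65.5 bp from that of the second. The summit of normal 1 was 40.5 bp from the second and 112.5 bp from the first. No other annotated gene, coding or not, had an end within 1000 bp of these summits.

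**Figure D1:**
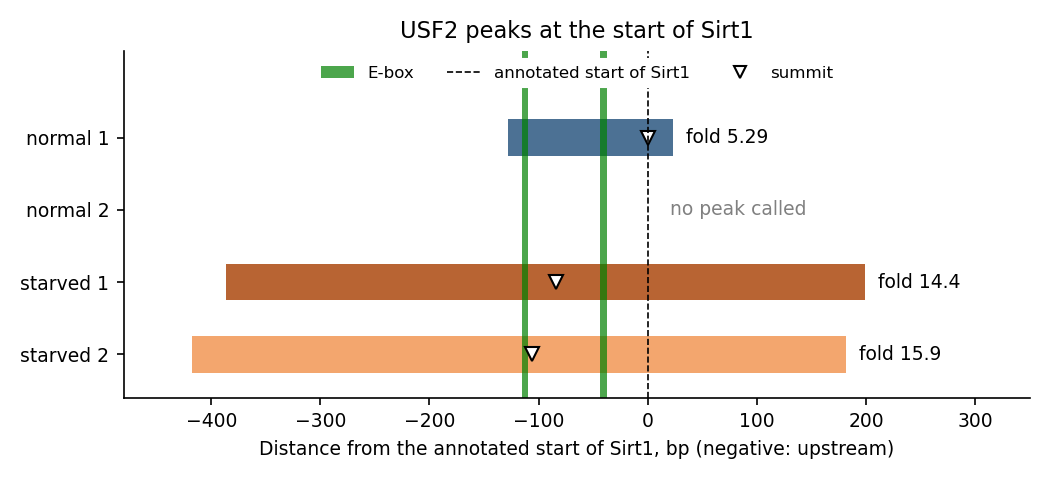
Extent of the USF2 peak (bars) and its summit (triangles) at Sirt1 in each list, against the distance in bp from the annotated start (dashed line, upstream negative), with the 2 CACGTG sites in green. The bars of starved 1 and starved 2 (fold 14.4 and 15.9) span both sites, as does the narrower bar of normal 1 (fold 5.29), and normal 2 has no peak.

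The read pileup behind each peak was recovered from its fold and p-value. At the Sirt1 summit it was 9 reads in normal 1 (95% exact Poisson interval 4.12 to 17.1), 24 in starved 1 (15.4 to 35.7) and 25 in starved 2 (16.2 to 36.9). These intervals cover the counting error of the pileup only. With the local background held fixed, they put the fold between 2.71 and 9.57 in normal 1, 9.41 and 21.1 in starved 1 and 10.5 and 23.2 in starved 2. The error of the background is not included. The local background at Sirt1 was 0.890 reads in normal 1, 9.09 times the lowest of that list, and 0.741 and 0.635 reads in starved 1 and 2, which is 5.65 and 4.78 times the lowest. Of all peaks in normal 1, 75.6% had 9 reads or fewer. Among the 66 peaks of that list whose background was within 10% of that at Sirt1, the smallest pileup was 8 reads and the median 13.5, so 9 reads were near the fewest called at such a background.

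Normal 2 called no peak at Sirt1, and its nearest summit was 72.6 kb away. Among the 107 peaks of normal 2 whose background was within 10% of that at Sirt1 in normal 1, the smallest pileup was 6 reads and the median 13. A pileup near that smallest value could therefore pass or miss the threshold there, and the missing call does not show that USF2 was absent. The 9 reads of Sirt1 in normal 1 were above that smallest value of normal 2. The pileup and background of normal 2 at Sirt1 are not known. The lists of the 2 conditions differ in calling width (narrowest peak 152 bp in both normal and 306 bp in both starved lists). Library read depth was not among the values used here. The part of width or depth in the Sirt1 values was not tested. The folds of different lists are given side by side and no change between conditions was computed from them. With 2 lists against 2, an exact permutation test cannot give a p below 0.33.

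**Figure D2:**
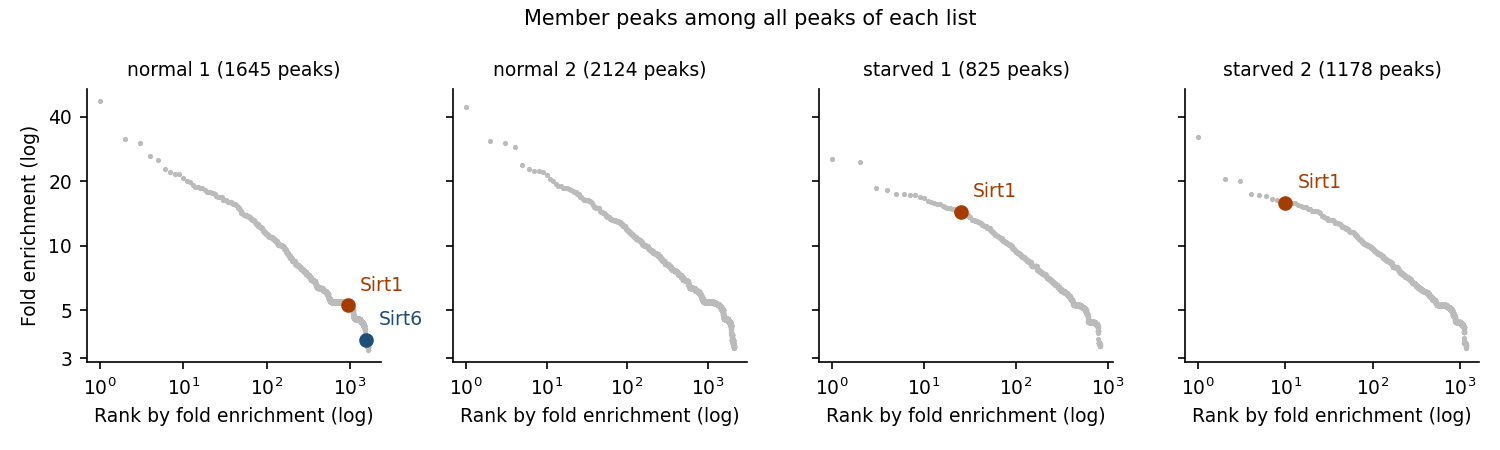
Fold enrichment of every peak (grey, log axis) against its rank in each list (log axis), with the peaks of Sirt1 and Sirt6 coloured. Sirt1 sits at rank 25 in starved 1 and 10 in starved 2 and at 942 in normal 1, where Sirt6 is at 1581.

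Among protein-coding genes 390 had a gene-end peak in both starved lists (1.78%). Of these, 247 (63.3%) were also called in both normal lists, 21 in 1 of them, Sirt1 included, and 122 in neither. Besides Sirt1, 10 genes had a fold at least as high as Sirt1 in both starved lists, resting on 8 peaks per list because neighbouring genes share some, and all 10 were called in both normal lists. The weakest of them in the starved lists was Cep162, a centrosome and cilium gene, with folds of 12.8 and 12.4 in normal 1 and normal 2 and of 15.0 and 16.2 in starved 1 and starved 2. The bar here was the fold of Sirt1 itself, which leaves out every gene just below it. At or above that bar, Sirt1 was the 1 gene that lacked a call in 1 normal list. That is a description of these 4 lists, from values known when the genes were listed.

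The call pattern of Sirt1, with normal 2 as the missing list, was shared by 9 other genes (10 with Sirt1, 0.0457% of all). The likest in fold was Ccdc57, whose fold rank differed from that of Sirt1 by 8.39 percentage points on average over the 3 lists. Its fold was 5.40 in normal 1, 8.82 in starved 1 and 9.57 in starved 2. Next came Sc5d, an enzyme of cholesterol synthesis, at 16.7 percentage points, with 4.68, 7.29 and 7.46. In both starved lists Sirt1 was the strongest of these 3 genes, and in normal 1 it stood between them.

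The promoters with USF2 summits were compared for the E-box only as a description. Of the 253 promoter windows that held a summit in both starved lists, Sirt1 among them, 88.9% had a CACGTG, 32.4% had 2 or more and 14.6% had the palindrome of 10 bases. The 335 windows with a summit in both normal lists had shares of 70.1%, 23.0% and 11.3%. The 2 sets overlap and are no independent samples.

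Sirt6 encodes a chromatin-bound sirtuin that acts on histone H3. It lies on chromosome 10 (81621787 to 81627792, minus strand). Its only call was a peak inside the gene in normal 1 (81626726 to 81626877), with a fold of 3.64, a −log10 q of 1.71 and a pileup of 3 reads (95% exact Poisson interval 0.619 to 8.77), the smallest pileup called in that list. It ranked 1581 of 1645. The summit was 1042 bp from the nearer end, just outside the 1000 bp limit, and 572 and 816 bp from the 2 starts that the RefSeq promoter table lists. The Sirt1 summit of starved 2, at 106 bp, was the farthest inside that limit. Normal 2 had its nearest peak 16.0 kb from Sirt6, and the starved lists 237 kb away.

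The other sirtuins had no peak near them. Sirt7, a nucleolar sirtuin linked to ribosomal RNA transcription (chromosome 11, 120618371 to 120625014), was the closest, with a peak 8.57 kb beyond its start in normal 1 (fold 7.53) and 8.58 kb in normal 2 (6.90). These 2 summits lay inside the gene Mafg and within 1000 bp of an end of the predicted gene Gm17586. The starved lists had their nearest peak 171 kb away, at Dus1l. Sirt2, mainly a cytoplasmic deacetylase of tubulin, had no summit closer than 106 kb in any list. For Sirt3, the main mitochondrial deacetylase, the closest was at 402 kb, and for Sirt5, a mitochondrial desuccinylase, at 395 kb.

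None of the 4 AMPK genes among the 10 had a call. Prkaa1 (chromosome 15, 5143861 to 5181899) and Prkaa2 (chromosome 4, 105029649 to 105109898) encode the catalytic alpha subunits, and their nearest summits over the 4 lists were 169 and 62.0 kb away. Prkab1, a beta subunit gene (chromosome 5, 116013586 to 116024503), had its nearest at 46.3 kb. Stk11 (chromosome 10, 80115767 to 80130679) had its nearest at 42.5 kb, a peak of normal 1 at an end of both Cirbp and Fam174c with a fold of 6.35. The lowest pileup called was 3 reads in each list. Among peaks whose background was within 10% of that at Sirt1 in normal 1, it was higher. There it was 8 reads in normal 1, 6 in normal 2, 10 in starved 1 and 8 in starved 2. The background at the AMPK genes is not known, so binding below such limits would not appear as a call.

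**Figure D3:**
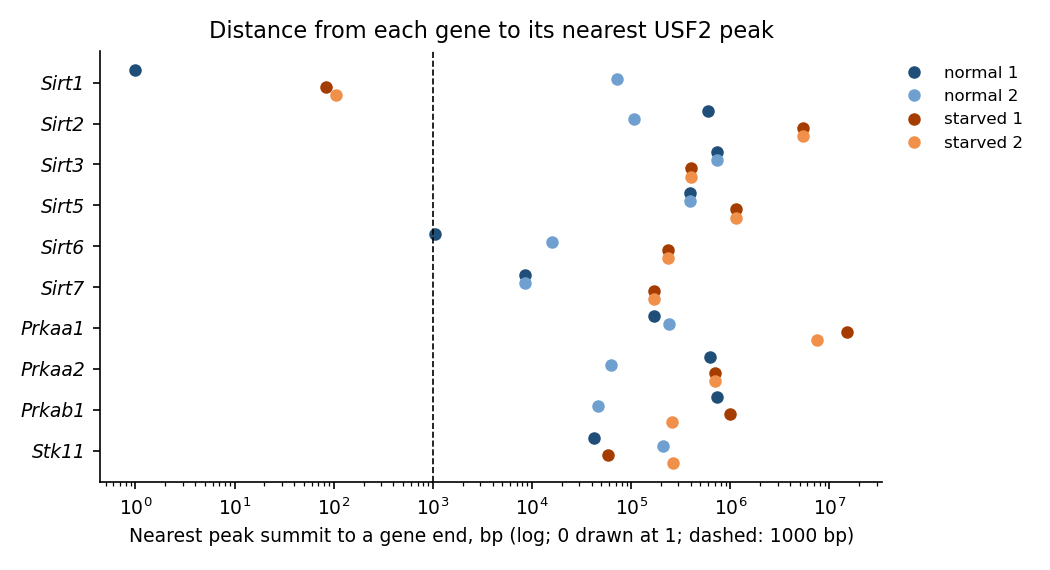
Distance in bp (log axis) from an end of each gene to the nearest peak summit in each of the 4 lists, with the 1000 bp limit dashed. Sirt1 has 3 points inside the limit, Sirt6 has 1 point at 1042 bp, and the other 8 genes have all points at 8.57 kb or farther.

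The wider pathway was read from 7 lists of 81 genes, of which 71 are not among the 10. At gene ends, 4 of these 71 (5.63%) were called in at least 1 list, where 4.05% of all genes were. All 4 were called in both normal lists (2.19% of all genes) and 0 in both starved lists (1.78% of all genes), and whether such calls differ between the conditions was not tested. Of 14 genes of the AMPK complex, its upstream kinases and their partners, 0 had a gene-end peak, as did 0 of 12 AMPK-related kinases that Stk11 activates and 0 of 11 class I and II histone deacetylases. AMPK substrates and effectors had 1 of 16, Mff. The folliculin complex had 1 of 3, Flcn. NAD synthesis and use had 2 of 18, Nmnat1 and Nnt, and the sirtuins 1 of 7, since Sirt4 was also without a call.

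Nnt, the mitochondrial transhydrogenase that makes NADPH from NADH, had the highest normal folds of these genes, 10.7 in normal 1 and 8.53 in normal 2. Starved 2 gave 5.29 and starved 1 had no call. Its normal ranks were 125 of 1645 and 275 of 2124, so it stood well above Sirt1 in normal 1, while starved 2 placed it at rank 683 of 1178, far below Sirt1. Nmnat1, a nuclear enzyme of NAD synthesis, had 5.29 in normal 1, the same fold and pileup (9 reads) as Sirt1 there, and 5.82 in normal 2. The peak edges at Nmnat1 were identical in both normal lists (chromosome 4, 149485104 to 149485255), and the summits were also within 1000 bp of an end of Lzic. Mff, a mitochondrial fission factor and AMPK substrate, had 5.49 and 6.40 in the normal lists, with both summits 49 bp from the gene end. Flcn, the gene of folliculin, had 5.47 and 7.29, at 831 and 815 bp from its end, and the noncoding Gm16062 had an end there too. Mff, Flcn and Nmnat1 had no call in a starved list.

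Unlike Sirt1, neither Mff nor Nmnat1 had a CACGTG in its promoter window, although each had a summit there in both normal lists. Their promoters are shown for this contrast, again from RefSeq (GRCm38.p6) and 5′ to 3′, with the general E-box CANNTG, which contains CACGTG, in capitals. The windows are chr1:82724640-82724939 on the plus strand and chr4:149485123-149485422 on the minus strand.
Mff: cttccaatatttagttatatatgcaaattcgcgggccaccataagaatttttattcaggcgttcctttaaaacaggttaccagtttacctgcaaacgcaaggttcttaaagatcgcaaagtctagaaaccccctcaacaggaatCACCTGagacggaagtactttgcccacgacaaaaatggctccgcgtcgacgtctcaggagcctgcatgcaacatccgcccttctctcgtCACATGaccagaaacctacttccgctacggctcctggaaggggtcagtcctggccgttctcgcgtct
Nmnat1: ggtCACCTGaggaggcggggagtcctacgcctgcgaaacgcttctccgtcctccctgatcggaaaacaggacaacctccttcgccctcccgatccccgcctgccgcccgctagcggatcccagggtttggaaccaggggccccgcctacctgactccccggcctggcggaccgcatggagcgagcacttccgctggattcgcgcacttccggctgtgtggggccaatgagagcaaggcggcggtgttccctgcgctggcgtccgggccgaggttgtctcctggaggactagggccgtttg
Mff had 2 CANNTG matches, with the letters CACCTG and CACATG, whose centres were 54.5 and 34.5 bp from the summit in both normal lists. Nmnat1 had 1, CACCTG, 258 and 240 bp (257.5 and 239.5) from its summits. Of all promoter windows, 72.3% held a CANNTG, so its presence sets no promoter apart. The Sirt1 window had no CANNTG besides its 2 CACGTG. No promoter sequence was available for Nnt, so its motifs could not be read and it is not part of this contrast.

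Inside genes and away from their ends, 6 more of the 71 pathway genes (8.45%) had a peak in at least 1 list, against 6.4% of all genes. Acacb, the gene of acetyl-CoA carboxylase 2, an enzyme that AMPK inhibits, was the only one of the 81 pathway genes called in all 4 lists, 26.8 kb from the nearer end. Its start in the RefSeq promoter table was closer, 7611 to 7634 bp from the summits. Its folds were 7.25 and 6.34 in normal 1 and normal 2 and 7.07 and 6.92 in starved 1 and starved 2, from 6 or 7 reads in each. The gamma subunit gene Prkag2 had a peak in both normal lists with the same edges and summit (chromosome 5, 25012040 to 25012193; fold 5.08 in each) and another in normal 2 (5.65). Foxo3 (5.28), Tbc1d4 (5.02) and Nmnat2 (5.22) were called in normal 2 alone, and Pfkfb3 (5.08) in normal 1 alone. The Pfkfb3 summit was 1358 bp from a listed start.

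**Figure D4:**
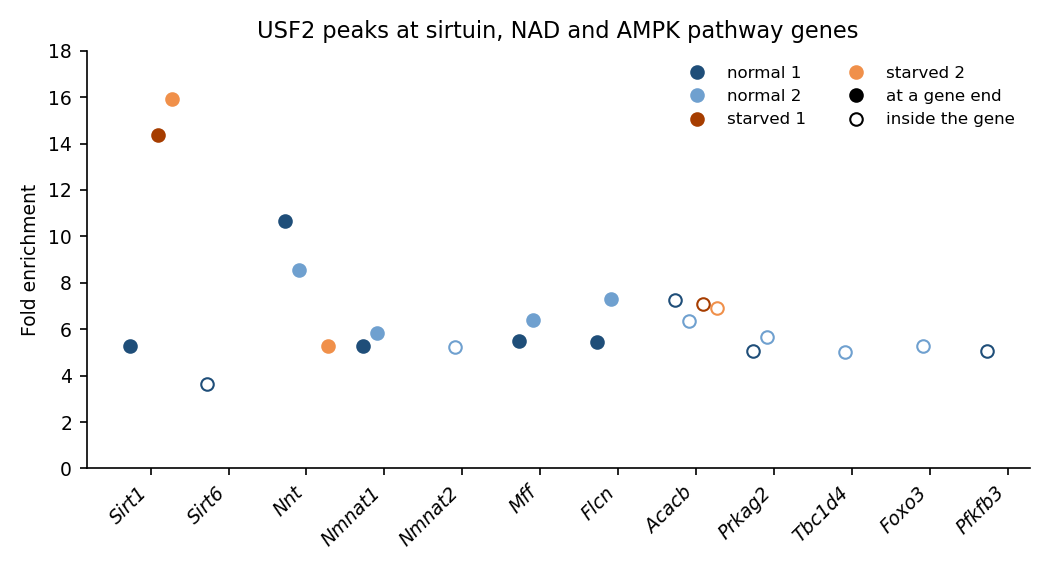
Fold enrichment of the peaks at gene ends (filled) and inside genes (open) for each sirtuin, NAD or AMPK pathway gene with a call, by list; of several peaks of a gene in a list the highest is drawn. Sirt1 has the highest points, 14.4 and 15.9 in the starved lists, Nnt leads in the normal lists with 10.7 and 8.53, and Acacb has a point in all 4 lists.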

How the data were processed

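USF2 was profiled by ChIP-seq in wild-type MEFs, with 2 libraries in normal culture and 2 after glucose starvation. The other 8 of the 12 samples (inputs and H3K27ac libraries) were not analysed here. Per the submitters' processing notes, the build was GRCm38 and the tools were MACS2 2.2.7.1, Bowtie2 2.5.1 and, in addition, deepTools 3.5.1, with no parameters given. The authors deposited 1 peak list per library. Each peak has a deposited fold enrichment (a ratio to the local background, with 1 added to each side), a deposited −log10 p and −log10 q, and a deposited score, which was not used. The deposited offset gives the summit. The labels name each list for a USF2 library and for the input of the same condition and replicate. Whether the input was the control in calling is not given in the sources used here. The recovered backgrounds of normal 1 and normal 2 were nearly equal at each pathway gene peak called in both. They were 1.19 reads in both at Mff, 0.890 at Nmnat1, 0.406 at Nnt, 0.180 at Prkag2, 0.104 at Acacb and 0.0979 at Flcn. Starved 1 and starved 2 had 0.131 and 0.156 reads at Acacb. Whether the 2 normal lists share a control, and so are not fully independent, was not tested.

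Only the assembled chromosomes (1 to 19, X, Y) were used, which left out 8 peaks of starved 2. Normal 1 and 2 then held 1645 and 2124 peaks and starved 1 and 2 held 825 and 1178, and the reads under a summit, at medians of 5, 6, 8 and 6, set the precision of a fold. The pileup was recovered by trying each whole number k, taking the background that gives the deposited fold as (k + 1)/(background + 1), and keeping the k with the Poisson p nearest to the deposited one, within 0.001 on the −log10 scale for every peak; on 889 simulated peaks k came back for 100%. Gene spans, starts and promoters came from RefSeq tables of GRCm38.p6, which give no exons. All 81 pathway genes matched. Ranks are within a list. Scripts used Python 3.11.15, pandas 2.3.3 and SciPy 1.17.1. The genes, the pathway lists and the motifs were chosen with earlier results of these data known, and no test between conditions was run. All 10 genes are named, as are pathway genes with a peak at an end, genes sharing such a peak and the 2 genes likest to Sirt1. Pathway genes with a peak inside them, and Cep162, were named after their values were seen. The alternatives were other distances, stricter peaks, lists of equal length, merged regions, starts in place of ends, and leaving out each list.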

Additional observations from a re-analysis of the deposited data

How the results depend on the processing

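Sirt1 kept its call in both starved lists under each setting that kept both lists, and in the remaining starved list when 1 was left out, so the count of genes called in the starved lists was 1 throughout. Sirt1 lost its call in normal 1, and so was called in 2 lists in place of 3, with −log10 q of at least 5, with lists of equal length and with pileups of at least 10 reads. The count in at least 1 list became 2, by the addition of Sirt6 in normal 1, with limits of 2000 and 5000 bp, with any base of the peak within 1000 bp, and with 1000 bp from any listed start, a setting chosen after seeing the data. The count of genes with a peak at an end or inside fell from 2 to 1, by the loss of Sirt6, with −log10 q of at least 5, with lists of equal length (825 peaks) and with pileups of at least 10 reads. Leaving out each list in turn, it ranged from 1 (without normal replicate 1) to 2. In the same way the counts in both normal lists and in all 4 lists, 0 as reported, ranged from 0 to 1, the 1 coming without normal replicate 2, since 1 list then decides for its condition. The weak Sirt1 peak of normal 1 rests on 9 reads. No paired analysis was possible because the results come from no test. Low read counts limit the weakest calls, which rest on 3 reads in each list.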
